A study of Mus musculus with 18 samples.

Results

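The mitochondrial ribosomal proteins were taken as every symbol of the count table that begins with Mrpl or Mrps followed by a number, which gave 78 genes (49 *Mrpl* and 29 *Mrps*) of 16314 symbols. All 78 passed the filter on low counts, with 12021 genes in all. The mitochondrial ribosome (mitoribosome) translates the few mRNAs encoded by mitochondrial DNA, which specify core subunits of the respiratory chain and of ATP synthase. Its RNA comes from mitochondrial DNA, while its proteins are encoded in the nucleus, made in the cytosol and imported. Most *Mrpl* genes encode proteins of the large subunit, which joins amino acids, and most *Mrps* genes those of the small subunit, which reads the mRNA, although *Mrps18a* and *Mrps30* belong to the large one. Respiration and glycolysis are used to different degrees by macrophages stimulated with LPS and by those stimulated with IL-4, so the supply of respiratory chain proteins is of interest in these cells.

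Bulk RNA-seq of bone marrow-derived macrophages (BMDMs) compared *Prep*-/- mice, which lack prolyl endopeptidase in all tissues, with heterozygous *Prep*+/- littermates on a C57BL6/J background, so the controls also carried 1 inactive allele. BMDMs were grown from femoral marrow for 7 days with 50 ng/ml M-CSF and were left unstimulated (M0), or were stimulated for 24 h with 50 ng/ml LPS (M1) or with IL-4 and IL-13, each at 20 ng/ml (M2). Each of the 6 groups had 3 biological replicates. Whether these came from separate animals is not given in the sources used here, so p-values measure only the spread between these libraries. The 18 libraries held between 19068237 and 22598279 counts. Levels are given as CPM, counts scaled by library size after TMM normalization. A gene passed when edgeR's quasi-likelihood test over all genes gave a Benjamini-Hochberg adjusted p under 0.05, and it was a DEG when its fold change was also over 1.5. The number of genes that pass changes when a library is left out or a setting is changed. Member counts from such fits without a share of all genes beside them describe stability only. Transcripts per cell and the number of cells cannot be told apart in bulk RNA.

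The targeted gene *Prep* was lower in every *Prep*-/- library, with log2 fold changes of -4.29, -3.74 and -3.77 in M0, M1 and M2. The summed macrophage markers (8 genes) lay between 10027 and 48180 CPM, while the erythroid sum did not exceed 0.377 CPM and the mast cell sum 0.0802 CPM. Granulocyte precursor markers (10 genes) summed to between 25.1 and 156 CPM, stromal markers (7) to between 2.26 and 25.1 CPM and dendritic cell markers (6) to between 0.200 and 2.64 CPM. B cell markers (4 of 6 listed were in the table) summed to 9.08 to 12 CPM in *Prep*-/- M0 against 3.01 to 4.88 CPM in *Prep*+/- M0. T cell markers (3 of 7) summed to 8.17 to 29.7 against 0.947 to 1.09 CPM, and in *Prep*-/- M0 nearly all of it was *Cd4*, with *Cd3d*, a defining T cell gene, at 0 in all 3 libraries. Macrophage markers were also higher in *Prep*-/- M0 (30386 to 48180 against 19002 to 22408 CPM), as were those of granulocyte precursors (67.9 to 156 against 31.9 to 44.0 CPM). In M1 the macrophage sum was lower in *Prep*-/- libraries (31000 to 37043 against 45757 to 47208 CPM), as was that of granulocyte precursors (51.5 to 71.6 against 79.1 to 145 CPM), while those of B cells (5.09 to 7.17 against 2.24 to 3.04 CPM) and T cells (3.23 to 4.68 against 0.899 to 1.67 CPM) were higher. Macrophage markers did not all move with their sum in M1, where *Mertk* had a log2 fold change of 1.23 and *Cd14* of -0.93. In M2 the macrophage sum (13889 to 19565 against 10027 to 12203 CPM), the granulocyte precursor sum (30.9 to 47.1 against 25.1 to 30.7 CPM) and the T cell sum (1.65 to 2.78 against 0.256 to 0.755 CPM) were higher. No listed gene of the table was at 0 in all libraries. *Prep*-/- M0 replicate 3 stood apart from the other replicates of its group, with short transcripts high. Counts and calls that changed without it are given beside the results. A similar trend toward short transcripts was found in *Prep*+/- M1 replicate 2, as given below.

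Promoters were read first, as a feature that the choice of members did not use. Letters of 4 motifs were searched on both strands from 250 bases before to 50 bases after the start of the canonical transcript, in GRCm39 with the GENCODE vM39 annotation. CCGGAAGT, an ETS site of the kind bound by GABPA, a factor known for nuclear-encoded mitochondrial genes, was present in 11 of 78 members (14.1%), against 7.02% of the 11778 tested genes with an annotated start. CGCATGCG, the core of the site of NRF1, another such factor, was present in 5 members (6.41%), *Mrpl9*, *Mrpl10*, *Mrpl22*, *Mrpl32* and *Mrps18b*, against 3.57% of genes. The order turned round with 1 more base on either side (G before and C after), a form held by 1 member (1.28%), *Mrpl9*, and 1.90% of genes. AAGATGGCG, the core of a YY1 site, was present in 4 members (5.13%), *Mrpl36*, *Mrpl42*, *Mrps11* and *Mrps18a*, against 2.29% of genes. GAGGAAGT, a site of the macrophage factor PU.1, was present in 0 members, against 3.19% of genes. The 11 members with CCGGAAGT were *Mrpl3*, *Mrpl27*, *Mrpl33*, *Mrpl43*, *Mrpl48*, *Mrpl51*, *Mrpl52*, *Mrps18c*, *Mrps22*, *Mrps26* and *Mrps35*. In *Prep*-/- against *Prep*+/- BMDMs, 1 of the 11 was higher and 3 were lower in M0, 0 and 3 for M1 and 0 and 0 for M2, where 24.3% and 24.2%, 19.7% and 16.6%, and 11.6% and 13.1% of all genes passed. A match of letters is a description and not a measured site.

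The 130 bases before and 20 bases after the start are printed for 4 members on which the results below turn, the first 2 with a CCGGAAGT match in capitals on either strand and the last 2 with none of the 4 motifs and so without capitals. *Mrpl52*, which rose most with LPS, lies at chr14:54664230-54664379 (plus strand), and *Mrps35*, which fell with LPS in *Prep*-/- BMDMs, at chr6:146944096-146944245 (plus strand). *Mrpl49* and *Mrps25* were lower in *Prep*-/- BMDMs in each of the 3 states and lie at chr19:6107852-6108001 (minus strand) and chr6:92161024-92161173 (minus strand). Positions are those of GRCm39 and each sequence runs 5′ to 3′ along the transcript.
Mrpl52: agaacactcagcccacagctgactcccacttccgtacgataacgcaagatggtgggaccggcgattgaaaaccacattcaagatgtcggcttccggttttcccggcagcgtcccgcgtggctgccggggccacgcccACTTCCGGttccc
Mrps35: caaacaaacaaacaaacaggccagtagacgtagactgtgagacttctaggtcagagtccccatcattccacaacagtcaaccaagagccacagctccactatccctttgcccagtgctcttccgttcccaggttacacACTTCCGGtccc
Mrpl49: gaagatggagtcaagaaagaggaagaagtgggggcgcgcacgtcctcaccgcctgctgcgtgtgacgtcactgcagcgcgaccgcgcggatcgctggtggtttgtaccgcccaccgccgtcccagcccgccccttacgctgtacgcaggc
Mrps25: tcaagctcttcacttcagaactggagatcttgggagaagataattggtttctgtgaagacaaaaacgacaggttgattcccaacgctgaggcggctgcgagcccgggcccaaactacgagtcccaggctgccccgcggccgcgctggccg

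On a scale per transcript length, the highest levels over the 18 libraries were those of *Mrps21*, at 136 CPM per kb, *Mrpl20*, at 85.5 CPM per kb, and *Mrpl28*, at 84.7 CPM per kb. The lowest were those of *Mrps5*, at 4.94 CPM per kb, *Mrps31*, at 4.10 CPM per kb, and *Mrpl47*, at 3.95 CPM per kb. These lengths are those of the annotated canonical transcripts and may include ends that are not used in these cells.

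The members have short transcripts, with a median of 1812 bases (555 to 7366), against 3395 bases (192 to 40378) for all tested genes with a length. Of the 78, 45 fell in the shortest of 4 equal classes of genes by length (192 to 2152 bases), 16 in the next, 13 in the third and 4 in the longest. A trend with length between libraries therefore moves with their level. The slope of log2 CPM, relative to the mean of all libraries, was fitted on log2 transcript length in each library. It was -0.187 per doubling of length in *Prep*-/- M0 replicate 3, against 0.0371 and 0.123 in replicates 1 and 2 of that group. In *Prep*+/- M0 it was -0.0190, 0.0483 and 0.151. In M1 it was 0.00208, -0.171 and -0.120 in *Prep*+/- and 0.0602, 0.0496 and -0.0129 in *Prep*-/- libraries, and in M2 it stayed between -0.0600 and 0.0557. The steepest slopes toward short transcripts were thus found in *Prep*-/- M0 replicate 3 and in *Prep*+/- M1 replicates 2 and 3, that is, in a *Prep*-/- library of M0 and in *Prep*+/- libraries of M1. What gave rise to the trend was not tested.

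**Figure D1:**
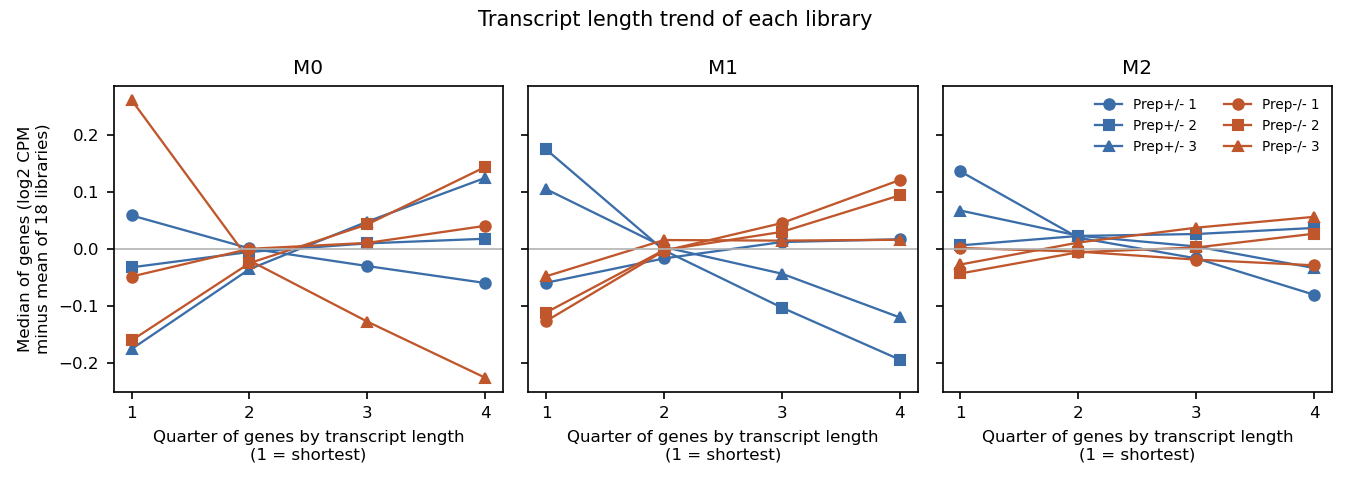
Median deviation of genes in each class of transcript length (log2 CPM minus the mean of 18 libraries), 1 line per library, in M0, M1 and M2 (blue *Prep*+/-, orange *Prep*-/-, symbols for replicates). In the shortest class, *Prep*-/- M0 replicate 3 lies at 0.26, the highest of all libraries, and falls to -0.23 in the longest class.

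The median of the 78 members in each library, on the same relative log2 scale, was 0.04, 0.01 and -0.17 for the controls of M0 and -0.35, -0.41 and 0.13 for the knockout libraries of that state. The first 2 *Prep*-/- M0 libraries lay below all 3 controls and the third above them. In M1 it was 0.01, 0.34 and 0.24 in *Prep*+/- and -0.22, -0.11 and -0.06 in *Prep*-/- libraries. In M2 it was 0.23, 0.07 and 0.16 in *Prep*+/- and -0.05, -0.12 and -0.04 in *Prep*-/- libraries. The genotypes did not overlap in M1 or in M2. After each library was corrected for its trend with length, the median of *Prep*-/- M0 replicate 3 was 0.01, against -0.31 and -0.27 in the other replicates, and the genotypes still did not overlap in M1 (0.01 to 0.25 against -0.18 to -0.07) or in M2 (0.07 to 0.15 against -0.06 to 0.01). The corrected median still tended to be higher in libraries whose slope favoured short transcripts (Pearson's r over the 18 libraries -0.64, and -0.78 before the correction), a description, since the libraries fall into 6 groups. Summed over all 78 members, M0 held 3082 ± 292 CPM in *Prep*+/- and 2872 ± 688 CPM in *Prep*-/- BMDMs, M1 3781 ± 491 and 2932 ± 144 CPM, and M2 3516 ± 230 and 3023 ± 85.7 CPM (SD, n = 3 each).

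**Figure D2:**
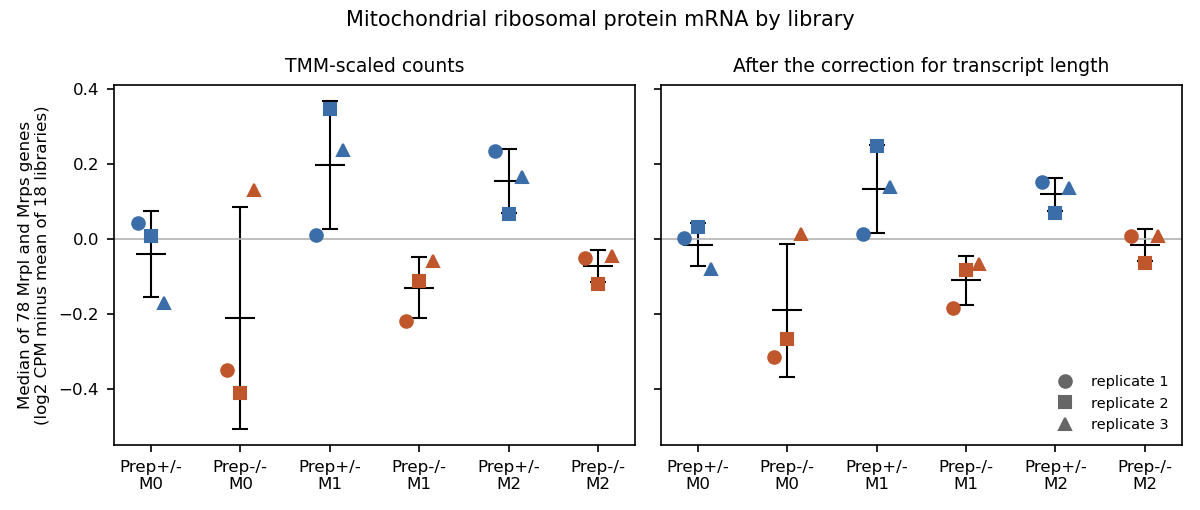
Median of the 78 members in each library (log2 CPM minus the mean of 18 libraries) before and after the correction for transcript length, with the group mean and SD (n = 3) as bars. *Prep*-/- M0 replicate 3 lies at 0.13 on the left and at 0.01 on the right, while every *Prep*-/- library of M1 and M2 lies under the *Prep*+/- libraries of its state in both panels.

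The knockout comparison asks which genes depend on *Prep* in each state. In M1, 33 of 78 members (42.3%) were lower in *Prep*-/- BMDMs, where 16.6% of all genes were called lower, and 1 (1.28%) was higher, where 19.7% were. Their median log2 fold change was -0.37, against 0.04 over all genes tested, and 72 of the 78 values were negative. Of the 78 members, 13 were lower DEGs, where 10.2% of all genes were. The member that rose was not a DEG, where 12.3% of all genes were higher DEGs. The libraries of the genotypes did not overlap, with *Prep*-/- lower, in 54 members (69.2%), against 27.1% of all genes. *Mrps28*, a small subunit protein, measured 19.5, 30.4 and 23.1 CPM in *Prep*+/- and 7.69, 11.7 and 12.6 CPM in *Prep*-/- M1 BMDMs. Its log2 fold change was -1.19 (SE 0.27, edgeR adjusted p = 0.00329). *Mrpl12*, the factor-binding protein of the stalk that is also known to bind mitochondrial RNA polymerase, measured 75.3, 121 and 91.4 against 41.0, 55.3 and 55.3 CPM, a log2 fold change of -0.93 (SE 0.22, edgeR adjusted p = 0.00447). *Mrpl54* (-0.90), *Mrpl52* (-0.88) and *Mrps18b* (-0.80) followed, of which *Mrpl52* did not pass without *Prep*+/- M1 replicate 2 or *Prep*-/- M1 replicate 1. All 5 had *Prep*-/- libraries under every *Prep*+/- library. *Mrpl39*, a protein near the site where the nascent chain leaves, was the 1 member that rose, from 55.3, 54.7 and 55.7 to 75.7, 59.6 and 68.8 CPM (log2 fold change 0.30, SE 0.10, edgeR adjusted p = 0.0265). *Mrpl39* lies opposite the transcript of *Mir155hg*, and strand handling in the counting is not given in the sources used here. It passed without *Prep*-/- M1 replicate 2 and did not pass when any other M1 library was left out. With *Prep*+/- M1 replicate 2 left out, 15 members were lower, against 10.8% of all genes, and with *Prep*-/- M1 replicate 1 left out, 16, against 9.57%.

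The members were lower in M1 within each class of transcript length, while the genes of those classes as a whole moved in different directions. In the shortest class, 19 of 45 members (42.2%) were lower, with a median log2 fold change of -0.37, against 24.5% of the genes of that class and a median of -0.19. In the second class, 5 of 16 were lower, against 18.2% of its genes (median -0.29, against 0.01), in the third 5 of 13, against 13.7% (median -0.32, against 0.09), and in the longest all 4, against 10.5% (median -0.61, against 0.19). After the correction for length 32 members were lower and 2 higher in M1, where 19.1% and 19% of all genes were, and their median was -0.28. Correction by coding length in place of transcript length left 23 lower and 3 higher, against 18.7% of genes each way, with a median of -0.22. Within the 78 members, length and log2 fold change had a Spearman correlation of 0.02 in M1, a description across genes, which are not replicates.

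In M0, 19 members (24.4%) were lower in *Prep*-/- BMDMs, where 24.2% of all genes were, and 6 (7.69%) were higher, where 24.3% were. Their median log2 fold change was -0.10, against 0.02 over all genes. DEGs were 9 lower and 2 higher members, against 17.2% and 15.4% of genes. With *Prep*-/- M0 replicate 3 left out, 40 members were lower and 2 higher, where 25.5% and 25.1% of all genes were, and the median was -0.34. With the length correction the counts were 26 lower and 7 higher with all libraries (23.8% and 29.8% of all genes), and 40 and 5 without that replicate (24.8% and 29.1%). 2 were also higher without *Prep*+/- M0 replicate 3. The count of lower members in M0 thus depended strongly on 1 library, and it also changed with other settings, as given in the closing section. The median stayed negative whichever library was left out, although it was much smaller in size in at least 1 of these fits. In the shortest length class, the median of the members was -0.07, against 0.10 for all genes of that class.

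*Mrps28* fell most in M0, from 23.2, 22.1 and 17.2 to 4.22, 4.27 and 9.0 CPM (log2 fold change -1.84, SE 0.28, edgeR adjusted p = 6.40e-05). Its highest *Prep*-/- value was that of replicate 3 and still lay below every control. *Mrps18b*, 1 of 3 mammalian relatives of bacterial S18, fell from 10.4, 14.1 and 13.5 to 6.54, 6.86 and 5.49 CPM (log2 fold change -1.01, SE 0.22, edgeR adjusted p = 0.00122). *Mrps10* (-0.83), *Mrpl42* (-0.79) and *Mrps25* (-0.76) also fell. *Mrps18b*, *Mrps10* and *Mrpl42* each have a processed pseudogene of over 90% identity, and *Mrps18b* lies opposite *Ppp1r10*. *Mrps28* shares a stretch of 303 bases at 90.1% identity with *Pole4*, and *Gm15466* overlaps it on the same strand. Among the members that rose, *Mrpl9* measured 49.5, 46.4 and 41.0 CPM in *Prep*+/- and 66.5, 66.4 and 76.7 CPM in *Prep*-/- M0 BMDMs (log2 fold change 0.62, SE 0.11, edgeR adjusted p = 0.000205), with no overlap between the genotypes. *Mrps9* (0.69), *Mrpl32* (0.54), *Mrpl24* (0.54) and *Mrps35* (0.49) rose as well. *Mrps9*, *Mrpl24* and *Mrps35* did not pass without *Prep*-/- M0 replicate 3 or without *Prep*+/- M0 replicate 3. In all, *Mrps9* did not pass under 3 of 20 alternatives, *Mrpl24* under 5 and *Mrps35* under 9.

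In M2, 7 members (8.97%) were lower, where 13.1% of all genes were, and 0 were higher, where 11.6% were. At an unadjusted p under 0.05 in the same edgeR test, 21 were lower and 1 was higher (18.1% and 18.7% of all genes), and DESeq2 called 7 and 0. The median log2 fold change was -0.20, against 0.03 over all genes, and 62 of 78 values were negative. 3 members were lower DEGs and 0 higher ones, against 9.82% and 6.37% of genes. In 35 members (44.9%) every *Prep*-/- library lay under every *Prep*+/- library, against 20.9% of all genes. When only the 6 libraries of M2 were fitted, 18 members were lower, against 11.7% of all genes, and 20, against 14.5%, with the replicate numbers as a block. Without *Prep*+/- M2 replicate 1 the count was 3, without *Prep*+/- M2 replicate 3 or *Prep*-/- M2 replicate 1 or 2 it was 4, and without *Prep*-/- M2 replicate 3 1 member was higher. *Mrps25*, a small subunit protein, fell most, from 81.0, 71.4 and 71.6 to 40.2, 42.7 and 42.6 CPM (log2 fold change -0.84, SE 0.14, edgeR adjusted p = 0.000502). *Mrpl42* fell from 77.8, 68.1 and 76.9 to 37.9, 40.5 and 59.4 CPM (log2 fold change -0.69, SE 0.16, edgeR adjusted p = 0.00510). *Mrpl57* (-0.63), *Mrpl49* (-0.41) and *Mrps5* (-0.39) also fell. Neither *Mrpl57* nor *Mrps5* passed without *Prep*+/- M2 replicate 1 or 3 or *Prep*-/- M2 replicate 1 or 2, and *Mrps5* did not pass either when only the M2 libraries were fitted, with or without the block. *Mrpl49* did not pass with the correction by coding length or with the length correction and the block. *Mrps28*, with 34.3, 29.7 and 33.0 against 19.9, 15.9 and 25.9 CPM, had no overlap in M2 and a log2 fold change of -0.65 that did not pass.

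**Figure D3:**
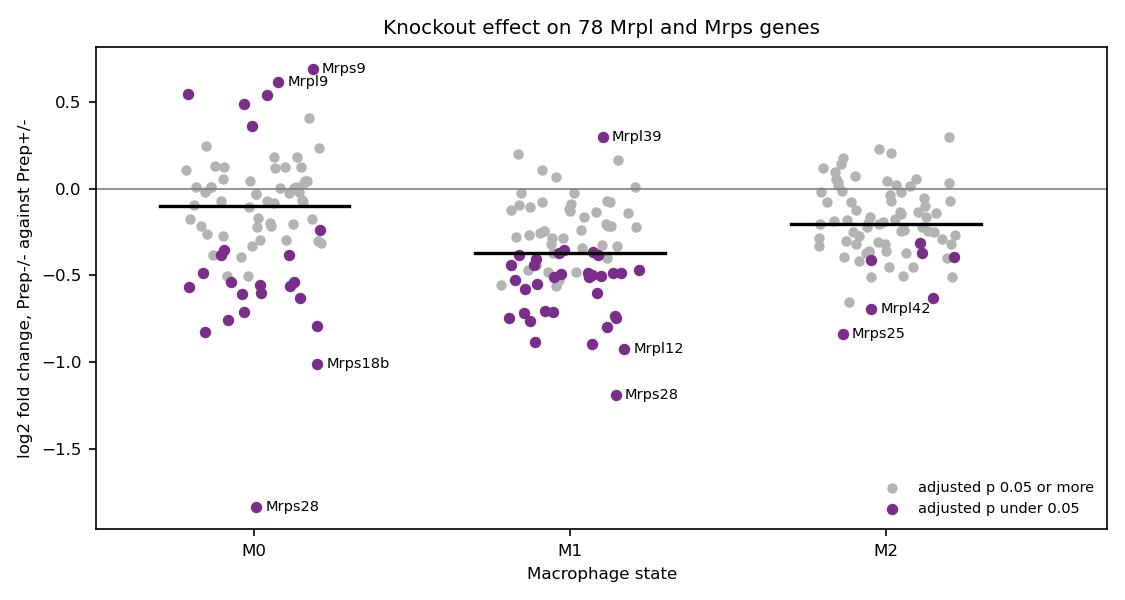
Log2 fold change of each of the 78 members between *Prep*-/- and *Prep*+/- BMDMs in M0, M1 and M2 (edgeR), with the median as a bar and the members of adjusted p under 0.05 in purple. The median is lowest in M1, at -0.37, and the members that rose lie in M0, except *Mrpl39* in M1.

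5 members were lower in all 3 states (6.41%, against 4.12% of all genes tested), namely *Mrpl18*, *Mrpl40*, *Mrpl49*, *Mrps5* and *Mrps25*, which were singled out after their values were seen. *Mrpl49* and *Mrps25* passed in all states whichever library was left out. *Mrpl18* did not pass in M2 under 9 of 19 alternatives, among them each of the 6 M2 libraries left out in turn, *Mrps5* not under 7 of 19 and *Mrpl40* not under 2 of 19, which included *Prep*+/- M2 replicate 1 left out. In M1, *Mrpl18* and *Mrps5* did not pass without *Prep*+/- M1 replicate 2 or *Prep*-/- M1 replicate 1. In M0, with only its libraries fitted and the block, *Mrpl18*, *Mrpl40* and *Mrps25* did not pass. The 3 comparisons share no libraries. *Mrps25* lay at 39.5 ± 5.29 and 23.4 ± 5.78 CPM in M0, at 36.4 ± 2.56 and 21.7 ± 2.05 CPM in M1, and at 74.7 ± 5.50 and 41.8 ± 1.42 CPM in M2 (SD, n = 3 each, *Prep*+/- first). Reads of *Mrps25* are uncertain, since it lies opposite *Nr2c2* and has a processed pseudogene, *Gm42933*, of 98.0% identity. *Mrpl49* measured 32.3, 34.6 and 31.6 against 20.9, 22.8 and 21.2 CPM in M0 (log2 fold change -0.60), 31.8, 33.2 and 28.4 against 21.2, 20.1 and 22.5 CPM in M1 (-0.55), and 34.7, 34.3 and 33.2 against 24.3, 22.8 and 29.8 CPM in M2 (-0.41). Both were lower in every *Prep*-/- library of each state. *Mrpl40*, a protein of the central protuberance, the part of the large subunit that faces the small one, measured 36.7, 37.8 and 34.8 against 23.9, 25.1 and 26.4 CPM in M0 (-0.54), and its log2 fold change was -0.44 in M1 and -0.37 in M2. *Mrpl18*, of the same protuberance, had log2 fold changes of -0.54 (M0), -0.37 (M1) and -0.31 (M2), and *Mrps5* of -0.60, -0.38 and -0.39. For *Mrps5*, too, a processed pseudogene (*Gm13328*) has 98.4% identity. *Mrpl49* lies opposite *Syvn1*, *Mrpl40* opposite *Hira* and *Mrpl18* opposite *Tcp1*, and *Mrpl18* has a processed pseudogene (*Gm13675*) of 93.9% identity. 14 members (17.9%) were lower in at least 2 states, 40 (51.3%) in at least 1 and 7 (8.97%) were higher in at least 1, against 15%, 34.8% and 37.7% of all genes. No member was lower in one state and higher in another (4.33% of all genes were), and 31 (39.7%) passed in none, against 31.9%.

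**Figure D4:**
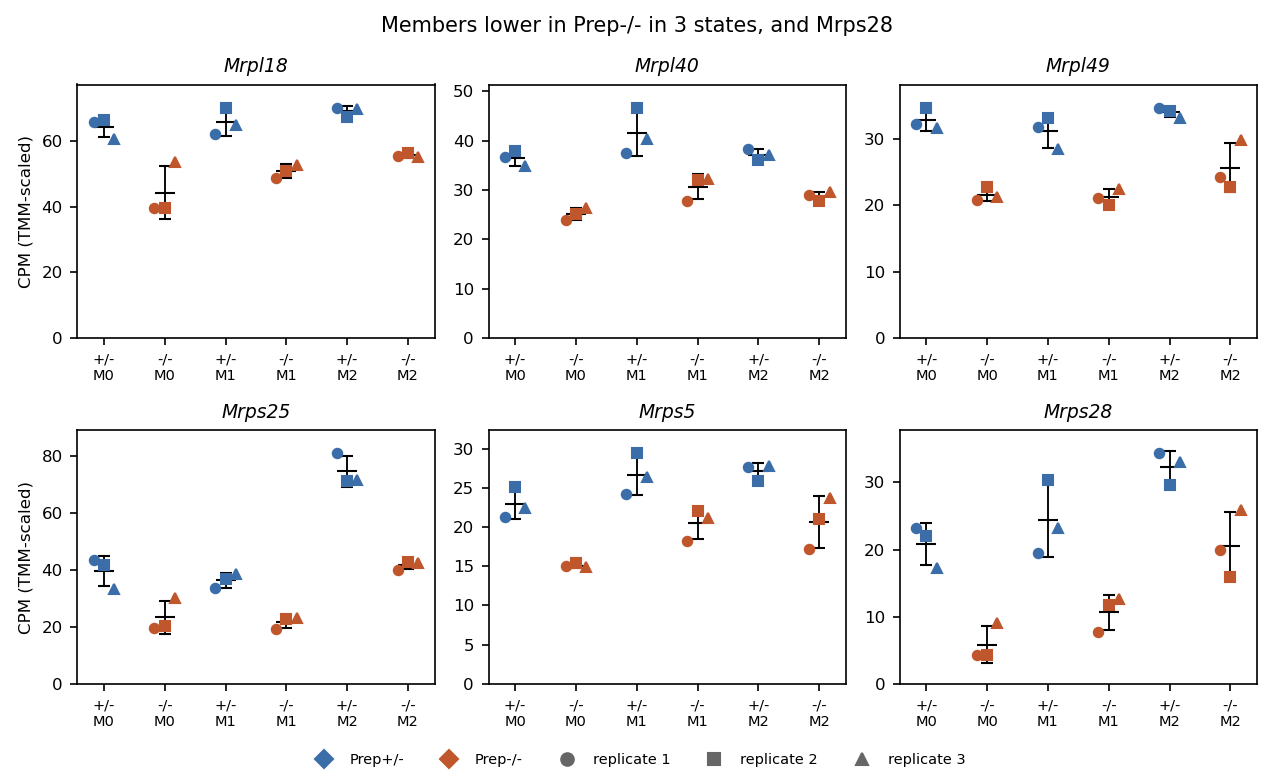
CPM of the 5 members lower in all 3 states, and of *Mrps28*, in each library (blue *Prep*+/-, orange *Prep*-/-, symbols for replicates), with the group mean and SD (n = 3). *Mrps25* in M2 lies between 71.4 and 81.0 CPM in *Prep*+/- and between 40.2 and 42.7 CPM in *Prep*-/- BMDMs.

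The counts by role below stand beside 24.2% of all genes called lower in M0, 16.6% for M1 and 13.1% for M2, and 24.3%, 19.7% and 11.6% called higher. The 5 proteins of the stalk, which recruits translation factors, included 1 lower member in M0, 3 in M1 (*Mrpl12*, *Mrpl53* and *Mrpl54*) and 0 in M2. *Mrpl10*, the base of the stalk, had log2 fold changes of 0.01, 0.01 and -0.13 in the 3 states, with standard errors of 0.08. Those of *Mrpl11* were -0.11, -0.47 and -0.16, and neither gene passed in the reported fit. *Mrpl11* passed as lower under 2 of 20 alternatives in M0 and under 5 of 19 in M1. Of the 7 proteins of the central protuberance, 2 were lower in each state, *Mrpl18* and *Mrpl40*. *Mrps30*, which despite its name is a protein of the large subunit there, had values of 0.23, -0.08 and -0.19. Of the 8 proteins at or near the exit of the nascent chain, 2 rose and 1 fell in M0, and 1 rose and 2 fell in M1. *Mrpl45*, which anchors the mitoribosome to the inner membrane, rose in M0 (0.36, edgeR adjusted p = 0.0197) and not past the test in M1 (-0.08) or M2 (0.12). In M0 it did not pass under 7 of 20 alternatives. These included *Prep*-/- M0 replicate 2 or 3 or *Prep*+/- M0 replicate 2 or 3 left out. *Mrpl58*, a peptidyl-tRNA hydrolase built into the large subunit, fell in M1 (-0.38, edgeR adjusted p = 0.0467), with values of 0.01 in M0 and -0.36 in M2. *Mrpl58* did not pass in M1 under 8 of 19 alternatives, among them each M1 library left out in turn except *Prep*+/- M1 replicate 1.

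Of the 3 relatives of S18, *Mrps18b* fell in M0 and M1 and measured 0.07 in M2. In the reported fit *Mrps18a* (-0.02, -0.44 and -0.20), which sits in the large subunit, and *Mrps18c* (0.13, -0.03 and 0.04) did not pass in any state. *Mrps18a* passed as lower under 1 of 20 alternatives in M0 and under 7 of 19 in M1. *Mrps12*, the relative of bacterial S12, which lines the site of decoding, had 0.04 in M0, -0.55 in M1 and -0.27 in M2. Its value in M0 was -0.39, and passed, without *Prep*-/- M0 replicate 3. *Mrps34* measured 0.12, -0.21 and -0.07. *Mrps36*, which is now known as a component of the 2-oxoglutarate dehydrogenase complex despite its symbol, measured -0.07, -0.03 and 0.04. Divided by origin, 12 of 48 members with a bacterial counterpart and 7 of 29 without one were lower in M0, 18 and 15 for M1 and 2 and 5 for M2. By symbol, 11 of 49 *Mrpl* and 8 of 29 *Mrps* genes were lower in M0, 20 and 13 for M1 and 5 and 2 for M2. 

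Whether *Prep* loss acted differently on a member in different states was read from interaction contrasts. Between M1 and M0, 1 member (*Mrpl39*, 0.50) had a higher and 5 a lower effect in M1, where 13.7% and 10.9% of all genes did. *Mrps21* (-0.94), *Mrpl32* (-0.87) and *Mrps35* (-0.81) had the lowest values, and neither *Mrps21* nor *Mrps35* passed without *Prep*-/- M0 replicate 3. With a difference of over 1.5-fold as well, 0 were higher and 4 lower, against 12.0% and 9.15% of genes. *Mrpl32*, whose maturation by the m-AAA protease is a known step of mitoribosome assembly, measured 21.0, 20.7 and 18.3 against 24.6, 26.7 and 36.1 CPM in M0, and 27.6, 36.5 and 30.4 against 24.8, 22.6 and 27.6 CPM in M1. Its *Prep*-/- libraries were thus all above the controls in M0, while in M1 they overlapped the lowest of them. Between M2 and M0, 1 member had a higher effect, *Mrps18b* (1.08), and 0 a lower one, where 5.16% and 4.48% of genes did. *Mrps18b* did not pass there without *Prep*-/- M0 replicate 3. At an unadjusted p under 0.05, edgeR gave 6 higher and 4 lower members there (13.4% and 12.4% of all genes), and DESeq2 called 2 and 0. *Mrps18b* also differed by over 1.5-fold, as did 4.53% of genes upward and 4.13% downward. Between M2 and M1, 3 members had a higher effect, *Mrps6* (1.0), *Mrpl36* (0.64) and *Mrpl50* (0.62), and 0 a lower one, where 5.90% and 7.94% of genes did. At an unadjusted p under 0.05, 9 were higher there and 0 lower (12.9% and 16.2% of all genes), and DESeq2 called 5 and 0. All 3 differed by over 1.5-fold, as did 4.58% of genes upward and 7.35% downward. Without *Prep*-/- M0 replicate 3, the contrast between M1 and M0 gave 5 higher and 2 lower members (13.8% and 10.9% of all genes), and without *Prep*-/- M0 replicate 2 or *Prep*+/- M1 replicate 1 it gave 14 and 11 lower ones. When any other library of the contrast but *Prep*+/- M0 replicate 1 was left out, 2 or 3 were lower. The contrast between M2 and M0 gave 4 higher members without *Prep*-/- M0 replicate 3 and 3 without *Prep*-/- M2 replicate 2. It gave 0 without *Prep*+/- M0 replicate 2 or 3, *Prep*+/- M2 replicate 1 or 2, or *Prep*-/- M2 replicate 3. The contrast between M2 and M1 gave 0 or 1 when any M1 or M2 library was left out except *Prep*+/- M1 replicate 1, *Prep*-/- M1 replicate 3 and *Prep*-/- M2 replicate 2.

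With LPS in *Prep*+/- BMDMs, 21 of 78 members (26.9%) were higher in M1 than in M0, a share near the 24.8% of all genes, and 1 (1.28%) was lower, where 27.3% of genes were. Their median log2 fold change was 0.21, against -0.03 over all genes. Among the 78 members, 11 higher and 0 lower ones were DEGs, against 16.7% and 20.9% of all genes. With the length correction the median was 0.12, against 0.02 over all genes. In the shortest length class, 9 of 45 members (20.0%) were higher, against 29.6% of the genes of that class, with medians of 0.18 and 0.12. *Mrpl52*, a large subunit protein, rose most, from 34.5, 35.7 and 24.8 to 124, 204 and 167 CPM (log2 fold change 2.38, SE 0.25, edgeR adjusted p = 7.50e-07). Every M1 library was over 3 times the highest M0 library. A gene model of GENCODE vM39, *Gm62879*, overlaps *Mrpl52* on the opposite strand. *Mrpl53* (1.08), *Mrps10* (0.96) and *Mrps18b* (0.95) rose next. *Mrps6*, which shares its locus and strand with *Slc5a3*, was the member that fell, from 11.5, 12.4 and 10.3 to 6.78, 8.88 and 7.09 CPM (-0.58, edgeR adjusted p = 0.0284). It did not pass without *Prep*+/- M0 replicate 1 or 2 or *Prep*+/- M1 replicate 1 or 3, and without *Prep*+/- M1 replicate 2 13 members were higher.

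In *Prep*-/- BMDMs, 20 members (25.6%) were higher and 8 (10.3%) lower in M1 than in M0, where 29.3% and 27.8% of genes were, with a median of 0.09. DEGs were 9 higher and 5 lower members, against 20.9% and 21.0% of genes. Without *Prep*-/- M0 replicate 3, 30 were higher and 7 lower, where 27.1% and 28.0% of genes were, and the median was 0.24. Without *Prep*-/- M0 replicate 2, 12 were higher and 20 lower, and without *Prep*-/- M1 replicate 2 or 3, 12 were higher. The shares of all genes in these fits are not given here. *Mrpl52* rose from 34.3, 23.6 and 40.0 to 72.6, 91.2 and 105 CPM (log2 fold change 1.46, SE 0.25, edgeR adjusted p = 9.98e-05). *Mrps10* (1.3), *Mrps18b* (1.17) and *Mrpl39* (1.03) rose as well. *Mrps35* fell from 28.8, 21.9 and 37.2 to 14, 15 and 15.2 CPM (log2 fold change -0.99, SE 0.18, edgeR adjusted p = 0.000144), with no overlap. *Mrps9* (-0.84), *Mrps21* (-0.83, and -0.45 without *Prep*-/- M0 replicate 3) and *Mrps6* (-0.79) fell with it. The same contrast had a median of -0.93 over the 84 cytosolic ribosomal protein genes, of which 78 were lower and 1 higher. With only the 6 libraries compared and the replicate numbers as a block, 14 members were higher and 8 lower.

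Stimulation with IL-4 and IL-13 gave 5 higher members (6.41%) and 0 lower ones in *Prep*+/- BMDMs, where 9.35% and 9.06% of genes were called, although 73 of 78 log2 fold changes were positive (median 0.17, against -0.01 over all genes). 3 higher members and 0 lower ones were DEGs, against 6.09% and 6.77% of genes. At an unadjusted p under 0.05, edgeR gave 14 higher and 0 lower members (14.5% and 15.8% of all genes), and DESeq2 called 5 and 0. The count of 5 fell to between 1 and 3 without *Prep*+/- M0 replicate 2 or 3 or *Prep*+/- M2 replicate 1 or 3. *Mrps25* rose most, from 43.4, 41.7 and 33.5 to 81.0, 71.4 and 71.6 CPM (log2 fold change 0.92, SE 0.14, edgeR adjusted p = 0.000212), followed by *Mrpl15* (0.64), *Mrps15* (0.61) and *Mrpl36* (0.52). In *Prep*-/- BMDMs, 18 members (23.1%) were higher and 1 (1.28%) lower, where 22.1% and 21.7% of genes were called, with a median of 0.12, and 31 were higher and 0 lower without *Prep*-/- M0 replicate 3, where 22.8% and 22.2% of genes were. Without *Prep*-/- M0 replicate 1 or 2, 3 and 8 were lower. There were 9 higher and 0 lower DEGs, against 14.7% and 15.5% of genes. *Mrps28* rose from 4.22, 4.27 and 9.0 to 19.9, 15.9 and 25.9 CPM (log2 fold change 1.82, SE 0.28, edgeR adjusted p = 6.55e-05). *Mrps18b* rose from 6.54, 6.86 and 5.49 to 17, 12.5 and 25.9 CPM (1.55, edgeR adjusted p = 2.88e-05). *Mrps6* (1.14) and *Mrps25* (0.84) rose too, and *Mrpl9* fell (-0.29). *Mrpl9* did not pass under 8 of 20 alternatives, among them *Prep*-/- M0 replicate 3 left out. Both stimulations are compared with the same M0 libraries within a genotype.

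**Figure D5:**
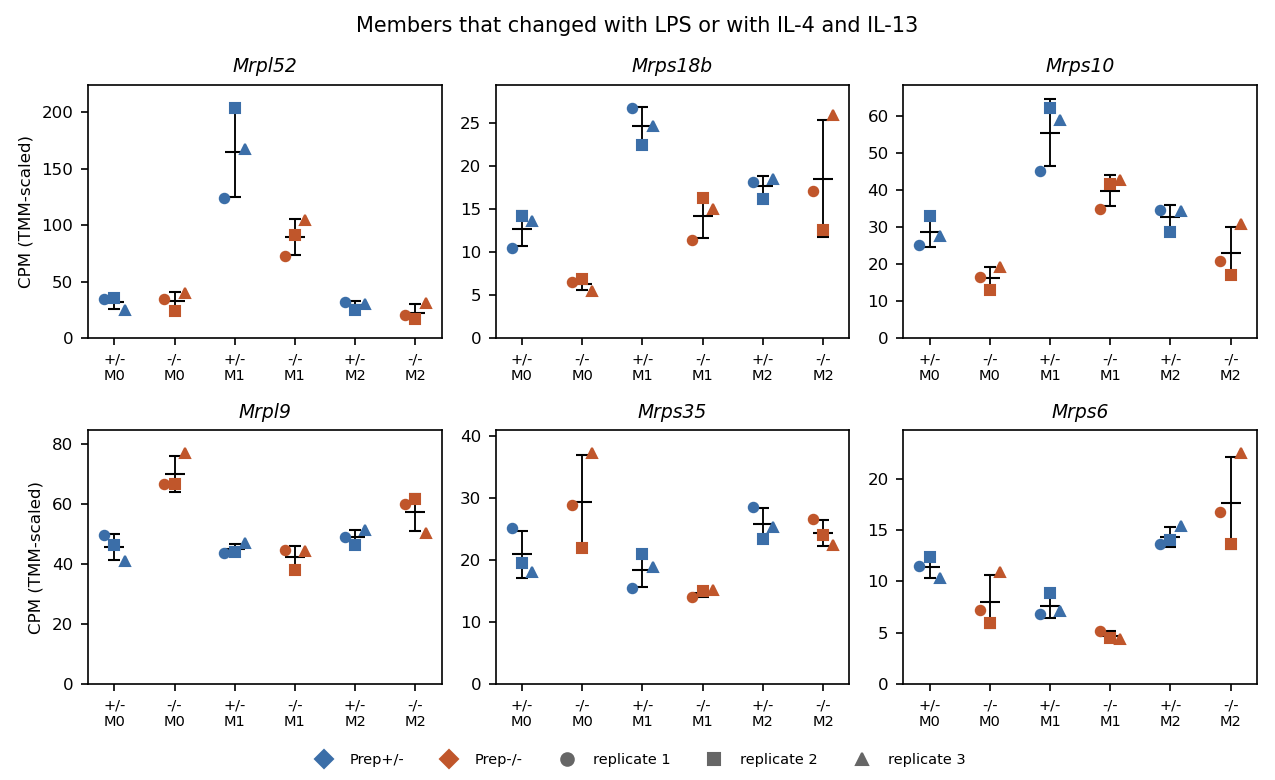
CPM of *Mrpl52*, *Mrps18b*, *Mrps10*, *Mrpl9*, *Mrps35* and *Mrps6* in each library (blue *Prep*+/-, orange *Prep*-/-, symbols for replicates), with the group mean and SD (n = 3). *Mrpl52* lies between 124 and 204 CPM in *Prep*+/- M1 and between 24.8 and 35.7 CPM in *Prep*+/- M0 BMDMs.

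Other genes of mitochondrial translation were read from lists beside the members, against the shares of all genes given above. Of 5 mitoribosome proteins without an Mrp symbol, 1 was lower in M0 (*Ptcd3*, -0.77), 3 in M1, among them *Ptcd3* (-0.86) and *Dap3* (-0.71), a GTP-binding protein of the small subunit, and 2 in M2 (*Chchd1*, -0.47, and *Dap3*, -0.46), with 0 higher in any state. Of 26 assembly and rRNA processing factors, 7 were higher and 7 lower in M0, 1 and 5 for M1 and 1 and 1 for M2. *Mrm3*, which methylates the RNA of the large subunit, had -1.43 in M1. Of 16 translation factors, 2 were higher and 4 lower in M0, 2 and 5 for M1 and 0 and 1 for M2, with *Gfm1*, an elongation factor, at -0.78 in M0 and *Tsfm*, another, at -1.04 in M1. Of 17 mitochondrial aminoacyl-tRNA synthetases, which charge the tRNAs, 12 were lower and 2 higher in M0, 5 and 3 for M1 and 3 and 0 for M2, and *Ears2* had -1.23 in M0 and -1.37 in M1. Of 12 genes of mitochondrial DNA replication and transcription, 3 were lower and 1 higher in M0, 3 and 2 for M1 and 2 and 1 for M2. Genes encoded by mitochondrial DNA were not analysed here.

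The respiratory chain subunits, which the mitoribosome helps to build, and the cytosolic ribosomal proteins were set beside the members because their transcripts are also short. Their counts stand beside 24.2% of all genes lower and 24.3% higher in M0, 16.6% and 19.7% for M1, and 13.1% and 11.6% for M2. Of 80 nuclear-encoded subunits, 7 were lower and 5 higher in M0, 12 and 1 for M1 and 1 and 0 for M2, with medians of -0.04, -0.36 and -0.09. Of 84 cytosolic ribosomal protein genes, 1 was lower and 22 higher in M0, 23 and 0 for M1 and 2 and 0 for M2, with medians of 0.39, -0.41 and -0.05. The members' median of -0.37 in M1 was therefore close to those of both lists, while in M0 and M2 it lay below both. With the length correction the medians in M1 were -0.28 for the members, -0.18 for the respiratory chain subunits and -0.21 for the cytosolic ribosomal proteins, and in M2 they were -0.13, -0.02 and 0.03.

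Cell cycle genes were lower in *Prep*-/- BMDMs, while nuclear regulators of mitochondrial genes were called in both directions. Of 14 cell cycle genes, 13 were lower in M0, 8 in M1 and 12 in M2 (0 were higher), and their library median on the relative log2 scale ran from 1.72 to 1.81 for controls and -1.06 to 0.14 for knockout libraries of M0, from -0.64 to -0.51 and -2.06 to -1.38 for those of M1, and from 1.39 to 1.45 and -0.90 to -0.16 for those of M2. Their part in the members' lower level was not tested, and neither was that of the macrophage, granulocyte precursor, B and T cell markers above. Of 10 nuclear regulators of mitochondrial genes, 3 were lower and 1 higher in M0, 3 and 2 for M1 and 1 and 2 for M2. Over all genes, 24.2% were lower and 24.3% higher in M0, 16.6% and 19.7% for M1, and 13.1% and 11.6% for M2. *Myc*, a factor known to drive ribosome and mitochondrial gene expression, had a log2 fold change of -3.76 (SE 0.64) in M0 and -2.56 (SE 0.59) in M1, and *Pprc1*, a PGC-1-related coactivator, had -1.02 in M0 and -1.25 in M1. In M2 *Myc* had a log2 fold change of -0.91 (SE 0.53) that did not pass, while *Ppargc1b* (1.23), a coactivator of mitochondrial biogenesis, and *Esrra* (0.41), the receptor with which it acts, rose. The part of these regulators in the members' levels was not tested.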

How the data were processed

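RNA-seq counts of *Prep*+/- and *Prep*-/- BMDMs in M0, M1 and M2 were analysed, with groups and replicate numbers from the sample labels and 0 columns left without a sample. Per the submitters' processing notes and the study's methods, the authors trimmed reads with Trimmomatic (0.36), aligned them to GRCm39 with HISAT2 (2.2.1.0) and assembled and counted them with stringtie2, and they deposited whole-number counts without normalization. The annotation release and the handling of strand and of multi-mapping reads are not given in the sources used here, and the library kit marks strand.

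Genes were filtered with filterByExpr on the 6 groups, scaled by TMM and tested with edgeR 4.0.16 (quasi-likelihood, R 4.3.3, limma 3.58.1) on all 18 libraries with 1 coefficient per group, with Benjamini-Hochberg adjustment over all 12021 genes. Standard errors were derived from the fold change and the F statistic. Relative log2 CPM used a prior count of 2. The length correction took from each library a natural spline with 4 degrees of freedom of its deviation on log2 transcript length. The members and lists were chosen with earlier results of these data known. The members named are, among those that passed with a mean of at least 5 CPM, up to 5 each way per knockout comparison, 4 per stimulation and 3 per interaction, those of known role, the 3 highest and 3 lowest per length, and up to 2 genes per other list, of which a part is given. Near copies (over 90% identity over 300 bases) were searched with blastn 2.17.0 among transcripts and found for 26 members, among them *Mrpl12*, *Mrpl32*, *Mrpl42* and *Mrps28*. The NRF1 and YY1 letters were shortened after a count with longer forms. The tests were also run on simulated data, but the outcome is not given here and nothing is drawn from it. Of the symbols, 541 had no match in GENCODE vM39 and 27 matched several loci.

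Alternatives were DESeq2 1.42.0 (Wald test), other size factors, no filter on low counts, only the libraries compared, a replicate block, a prior count of 0.5, length corrections, and each library left out in turn. Same-numbered libraries deviated together from their group means in the knockout comparison of M2 (r = 0.249, 0.255 and 0.462) and for LPS in *Prep*-/- BMDMs (r = 0.201, 0.169 and 0.259). The reported fits hold no pairing. For these comparisons, counts with the replicate numbers as a block are given beside the reported ones. The pairing comes from these correlations alone.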

Additional observations from a re-analysis of the deposited data

Results flagged for a closer look

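8 members were singled out because the knockout effect differed between 2 states by the test of the difference itself (edgeR interaction, Benjamini-Hochberg over all genes). Between M1 and M0 the log2 difference was 0.50 for *Mrpl39* (SE 0.14, edgeR adjusted p = 0.0163), -0.94 for *Mrps21* (edgeR adjusted p = 0.0369), -0.87 for *Mrpl32* (SE 0.20, edgeR adjusted p = 0.00548) and -0.81 for *Mrps35* (edgeR adjusted p = 0.0252). *Mrps21* measured 143 CPM in *Prep*-/- M0 replicate 3, against 74.7 and 68.4 CPM in the other replicates, and neither it nor *Mrps35* passed without that library. *Mrpl32* passed under all 26 alternatives, with differences between -0.98 and -0.69. Between M2 and M0 the difference was 1.08 for *Mrps18b* (edgeR adjusted p = 0.0331), which did not pass without *Prep*-/- M0 replicate 3 either. Between M2 and M1 it was 1.0 for *Mrps6* (edgeR adjusted p = 0.0360), 0.64 for *Mrpl36* (edgeR adjusted p = 0.0290) and 0.62 for *Mrpl50* (edgeR adjusted p = 0.0406). *Mrpl39* passed under 24 of 26 alternatives, *Mrps35* under 19 of 26, *Mrps18b* under 15 of 26 and *Mrps21* under 12 of 26. *Mrps6* passed under 16 of 25, *Mrpl36* under 19 of 25 and *Mrpl50* under 16 of 25. These contrasts share libraries.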

How the results depend on the processing

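Passing values numbered 69, those of named members and those of *Prep* in the 3 knockout comparisons. Of these, 38, among them all 3 of *Prep*, passed under every alternative run and 31 did not pass under at least 1. None of the 69 changed direction with a call. Of 659 alternative values of the 30 comparison summaries, 486 stayed within 1.5 times the count or within the spread of the median. No cause of a change was tested. The length of a gene was that of GENCODE, so the correction cannot see isoforms in use, and 3 libraries a group limit the smaller effects.

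Some values near 0 that passed under no fit also changed sign. Those that changed sign and then passed were *Mrps36* in the M1 knockout comparison (0.27 with coding length) and *Mrps12* in M0 (-0.39 without *Prep*-/- M0 replicate 3, within a range of -0.39 to 0.23 over the libraries left out in turn, and -0.32 with the length correction as well), neither of which passed in the reported fit. The 3 settings that use coding length, estimate the length trend within groups, or join the length correction with leaving out *Prep*-/- M0 replicate 3 were added after seeing the data.

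Among the scalings, upper-quartile factors moved the median of all genes in M1 against M0 from -0.03 to -0.15 in *Prep*+/- and from 0.00 to -0.13 in *Prep*-/- BMDMs. Apart from the M2 knockout comparison and LPS in *Prep*-/- BMDMs, libraries of a number correlated at -0.315 to 0.245. These correlations were never over 0.1 for all 3 numbers, and those libraries share a number only. The values below are those outside 1.5 times the reported count or outside the spread of the reported median, followed by the range when each library was left out in turn. The counts stand without the shares of all genes in those fits and describe stability only.

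In the M0 knockout comparison, higher members numbered 3 with only the libraries compared, 1 with the replicate block on only the libraries compared, 2 with the length correction and the replicate block on only the libraries compared or a fold change over 1.5, and 2 to 8 over the libraries left out, against 6 as reported. Lower members numbered 12 with only the libraries compared, 7 with the replicate block on only the libraries compared, 29 with coding length, 40 with the length correction without *Prep*-/- M0 replicate 3, 9 with a fold change over 1.5, and 13 to 40 over the libraries left out, against 19 as reported. The median was -0.34 to -0.012 over the libraries left out, against -0.099 as reported. In the M1 knockout comparison, higher members numbered 2 with the length correction, that correction estimated on other genes or the length correction and the replicate block on only the libraries compared, 3 with coding length, 0 with a fold change over 1.5, and 0 to 1 over the libraries left out, against 1 as reported. Lower members numbered 13 with a fold change over 1.5, and 15 to 42 over the libraries left out, against 33 as reported. The median was -0.22 with coding length, and -0.46 to -0.32 over the libraries left out, against -0.37 as reported. In the M2 knockout comparison, higher members numbered 2 with the length correction, that correction estimated on other genes or coding length, and 0 to 1 over the libraries left out, against 0 as reported. Lower members numbered 18 with only the libraries compared, 20 with the replicate block on only the libraries compared, 11 with the length correction and the replicate block on only the libraries compared, 12 with coding length, 15 with the length trend within groups, 3 with a fold change over 1.5, and 3 to 10 over the libraries left out, against 7 as reported. The median was -0.13 with the length correction or the length correction and the replicate block on only the libraries compared, -0.12 with coding length, and -0.30 to -0.14 over the libraries left out, against -0.20 as reported.

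In M1 against M0 in *Prep*+/- BMDMs, the higher members were 11 with a fold change over 1.5, and 13 to 23 over the libraries left out, against 21 as reported. The lower ones were 2 with upper-quartile factors, 5 with the length correction, 6 with that correction estimated on other genes, 7 with the length correction and the replicate block on only the libraries compared, 8 with coding length, 0 with a fold change over 1.5, and 0 to 1 over the libraries left out, against 1 as reported. Their median came to 0.084 to 0.26 over the libraries left out, against 0.21 as reported. In M2 against M0 in *Prep*+/- BMDMs, the higher members were 18 with only the libraries compared or the length correction and the replicate block on only the libraries compared, 23 with the replicate block on only the libraries compared, 8 with the length correction or that correction estimated on other genes, 11 with the length trend within groups, 3 with a fold change over 1.5, and 1 to 5 over the libraries left out, against 5 as reported. The lower ones were 1 with the length correction or the length correction and the replicate block on only the libraries compared, and 0 to 0 over the libraries left out, against 0 as reported. Their median came to 0.095 to 0.22 over the libraries left out, against 0.17 as reported. In M1 against M0 in *Prep*-/- BMDMs, the higher members were 13 with upper-quartile factors, 12 with only the libraries compared, 32 with the length correction without *Prep*-/- M0 replicate 3, 9 with a fold change over 1.5, and 12 to 30 over the libraries left out, against 20 as reported. The lower ones were 17 with upper-quartile factors or coding length, 13 with the length correction, 15 with that correction estimated on other genes, 14 with the length trend within groups, 5 with a fold change over 1.5, and 7 to 20 over the libraries left out, against 8 as reported. Their median came to -0.071 to 0.24 over the libraries left out, against 0.086 as reported. In M2 against M0 in *Prep*-/- BMDMs, the higher members were 7 with only the libraries compared, 6 with the replicate block on only the libraries compared, 28 with the length correction or that correction estimated on other genes, 10 with the length correction and the replicate block on only the libraries compared, 34 with the length correction without *Prep*-/- M0 replicate 3, 9 with a fold change over 1.5, and 12 to 31 over the libraries left out, against 18 as reported. The lower ones were 5 with upper-quartile factors, coding length or the length trend within groups, 0 with no filter on low counts, only the libraries compared, the replicate block on only the libraries compared, that correction estimated on other genes, the length correction and the replicate block on only the libraries compared, the length correction without *Prep*-/- M0 replicate 3 or a fold change over 1.5, 2 with the length correction, and 0 to 8 over the libraries left out, against 1 as reported. Their median came to -0.040 to 0.29 over the libraries left out, against 0.12 as reported.

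In the interaction of M1 and M0, members with a higher effect were 2 with the replicate block or the length trend within groups, 0 with the replicate block on only the libraries compared or a fold change over 1.5, 4 with the length correction or the length correction and the replicate block on only the libraries compared, 3 with that correction estimated on other genes, 6 with coding length, 9 with the length correction without *Prep*-/- M0 replicate 3, and 0 to 5 over the libraries left out, against 1 as reported. Members with a lower effect were 3 with the replicate block or the length correction without *Prep*-/- M0 replicate 3, 2 with the replicate block on only the libraries compared, 14 with the length trend within groups, 9 with DESeq2, and 2 to 14 over the libraries left out, against 5 as reported. The median difference was -0.033 with coding length, 0.033 with the length correction without *Prep*-/- M0 replicate 3, and -0.40 to 0.0061 over the libraries left out, against -0.25 as reported. In the interaction of M2 and M0, members with a higher effect were 0 with only the libraries compared or the replicate block on only the libraries compared, 2 with the replicate block or DESeq2, 3 with the length correction or that correction estimated on other genes, 5 with coding length or the length correction without *Prep*-/- M0 replicate 3, 4 with the length trend within groups, and 0 to 4 over the libraries left out, against 1 as reported. Members with a lower effect were 0 to 0 over the libraries left out, against 0 as reported. The median difference was 0.17 with the length correction without *Prep*-/- M0 replicate 3, and -0.20 to 0.17 over the libraries left out, against -0.080 as reported. In the interaction of M2 and M1, members with a higher effect were 5 with the length correction, that correction estimated on other genes, coding length or DESeq2, 6 with the length correction and the replicate block on only the libraries compared or the length trend within groups, and 0 to 4 over the libraries left out, against 3 as reported. Members with a lower effect were 1 with the length correction, that correction estimated on other genes, the length correction and the replicate block on only the libraries compared or coding length, and 0 to 1 over the libraries left out, against 0 as reported. The median difference was 0.049 to 0.21 over the libraries left out, against 0.11 as reported.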
